A study of Mus musculus with 18 samples.

Results

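The comparison described here sets entinostat against its vehicle, DMSO, in mouse erythroleukemic cells whose hairpin against Spi1 had not been switched on, so that the transcription factor SPI1 (also called PU.1) stayed at the high level of the line. It uses 6 of the 18 libraries of the series, 3 with entinostat (labelled Dox_Untreated_Entinostat_Treated, here NoDox_Entinostat) and 3 with DMSO (Dox_Untreated_DMSO_Treated, here NoDox_DMSO), and all 26903 genes of the table, of which 15051 passed the filter on low counts and were tested. Both groups are TgSpi1 line #763, leukemic erythroid cells from bone marrow that carry a Spi1 transgene and a doxycycline-inducible short hairpin RNA against Spi1. Both were grown with erythropoietin (EPO) in exponential phase and received no doxycycline. Entinostat was given at 3 µM for 6 h. A further 6 libraries of the same experiment, given doxycycline for 48 h and also DMSO (Dox_DMSO) or entinostat (Dox_Entinostat), enter the same fit and the test of a difference between the 2 entinostat effects. The labels call the 3 libraries of a group biological replicates, but all come from 1 line, so the p-values measure the spread between cultures of that line.

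Histone deacetylases take acetyl groups off the lysines of histones and other proteins. The class I enzymes HDAC1, HDAC2 and HDAC3 work inside corepressor complexes such as SIN3, NuRD, CoREST and NCoR, which DNA-bound factors recruit to hold genes at a low level. Entinostat is a benzamide that blocks class I enzymes, and the labels name HDAC1 and HDAC3 as its targets. SPI1 is an ETS factor that drives myeloid and B cell genes, and in red cell precursors its excess holds back terminal maturation.

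The libraries held 44.9 to 48.8 M counts. The first NoDox_Entinostat library stood apart from the other 2 of its group. Across genes of more than 2 log2 CPM (counts divided by the TMM-scaled library total in M, with no division by gene length), it correlated with them at 0.906 and 0.915, while they correlated with each other at 0.997 and the DMSO libraries with one another at 0.991 to 0.995. Its shift went with transcript length. For the shortest of 4 equal groups of genes its median log2 ratio to the DMSO mean was 0.16, against -0.42 and -0.36 in the second and the third libraries, and for the longest group it was -0.56, against 0.05 and 0.05. The first Dox_DMSO library departed from its own group in nearly the same genes (correlation of the 2 departures 0.956 across 9396 genes, a description in which genes are not independent), and in the 3 Dox_Entinostat libraries the longest group lay between -0.54 and -0.44. Mitochondrially encoded RNA made up 1.64% of counts in the first NoDox_Entinostat library, 1.02% and 0.929% in the others of its group and 0.835% to 1.24% in DMSO. Values by library are therefore given below, and the text says where the call of a gene it describes ends without this library.

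**Figure D1:**
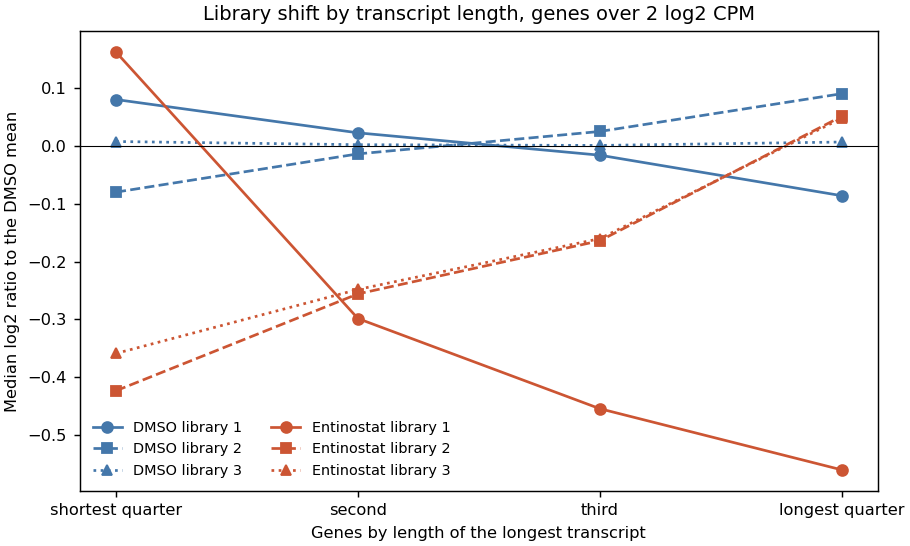
Median log2 ratio of each of the 6 libraries to the DMSO mean (y axis) for 9396 genes over 2 log2 CPM in 4 groups by the length of their longest transcript (x axis). The first entinostat library falls from 0.16 in the shortest group to -0.56 in the longest, while the second and the third rise from -0.42 and -0.36 to 0.05.

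Most of the genes called in a fit without the first entinostat library had the same sign in it, while the size of the shift differed with length. The 4535 genes that rose in a fit without the first entinostat library, and were tested in both fits, had median log2 ratios to the DMSO library of the same number of 1.97, 1.92 and 1.81 in libraries 1, 2 and 3, and 95.7% of them had the same sign in the first library. The 2529 genes that fell had medians of -0.86, -0.81 and -0.78, with the same sign in 95.5%. Both shares are in part built in, since the first DMSO library was also in the fit that called these genes. Many of the rises also started near 0 in DMSO, where a ratio can hardly be negative. The shares are therefore a description. Among the called genes over 2 log2 CPM, the rises of the longest group had a median of 0.44 in the first pair of same-numbered libraries and 0.94 in the other pairs, and the falls of that group -1.09 and -0.75. In the shortest group the rises stood at 1.18 and 1.02 and the falls at -0.59 and -0.78. Of the 4554 rises in the full fit, 4150 (91.1%) were also called without that library, and of the 2545 falls 2088 (82%). The fit without it called 30.3% of 15517 genes as rises and 16.3% as falls.

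Spi1 RNA (ENSMUSG00000002111, mm10 chromosome 2, 91082390 to 91115756) was followed first, since the comparison is defined by its level. It stood at 199.6, 259 and 252 CPM in the DMSO libraries and at 221, 480.3 and 482 CPM in the entinostat libraries. The first entinostat library lies between the DMSO values and the second and the third lie above all of them. The log2 fold change was 0.74 ± 0.33 (adjusted p = 0.0813), which did not pass the threshold of 0.05, while a fit without the first entinostat library gave 1.02 (adjusted p = 0.00853), without the first Dox_DMSO library 0.73 (0.0375), with library size alone 1.0 (0.0354) and with no filter on low counts 0.75 (0.034).

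The drug's own targets and the Polycomb enzymes named in the title of the series moved little in RNA. Hdac1 stood at 338, 338 and 339 CPM in DMSO and 372, 349 and 343 CPM in entinostat (0.07 ± 0.16, adjusted p = 0.75), and Hdac3 at 115, 111 and 109 and 122, 124 and 123 CPM (0.14 ± 0.13, adjusted p = 0.399; 0.39 and 0.0315 with library size alone). Hdac2 stood at 122, 129.7 and 140.4 CPM in DMSO and at 72.5, 98.3 and 102 CPM in entinostat, with no overlap (-0.53 ± 0.17, adjusted p = 0.0191). That call ended without the first entinostat library (0.0574) or without the second (0.0507) or the third DMSO library (0.0731), with library size alone (0.283) and with no filter (0.0732). Ezh2, the main methyltransferase of Polycomb repressive complex 2 (PRC2), gave -0.17 ± 0.17, and its partners Suz12 and Eed gave -0.31 ± 0.24 and -0.07 ± 0.22, none of which passed. Ezh1, the other PRC2 methyltransferase, rose from 13.7, 17.5 and 17.4 to 23.5, 42 and 40.8 CPM (1.13 ± 0.25, adjusted p = 0.00263), with all 3 entinostat libraries above all DMSO libraries.

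Entinostat had a broad effect on the transcriptome at 6 h. Of 15051 genes tested, 4554 (30.3%) rose and 2545 (16.9%) fell, and 3804 (25.3%) rose and 743 (4.94%) fell by a factor of 2 or more. In 9061 genes (60.2%) all libraries of 1 group lay above all of the other. Over all tested genes the median was 0.07 on the log2 scale. With library size alone in place of TMM factors that median moved to 0.32, and 5417 genes (36%) rose and 1233 (8.19%) fell, so the split of rises against falls and the direction of small shifts depend on the scaling. Changes are therefore read against the median of all genes.

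Where a gene stood in DMSO went with the direction of its change. Of 1605 genes tested with a DMSO mean under 0.1 CPM, 1398 (87.1%) rose and 0 fell. A gene in that range could pass the filter only through a group where it was higher, so the share that rose is set largely by the filter. Of 2463 genes at 1 to 10 CPM, 1130 (45.9%) rose and 144 (5.85%) fell. Of 5551 genes at 10 to 100 CPM the shares were 11.3% and 25%, and of the 2549 genes at 100 CPM or more 27 (1.06%) rose and 942 (37%) fell. Among the 10563 genes of at least 1 CPM in DMSO, called expressed below, 1786 (16.9%) rose and 2474 (23.4%) fell, with a median of -0.15, and counts of expressed members of a list are read against these shares.

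**Figure D2:**
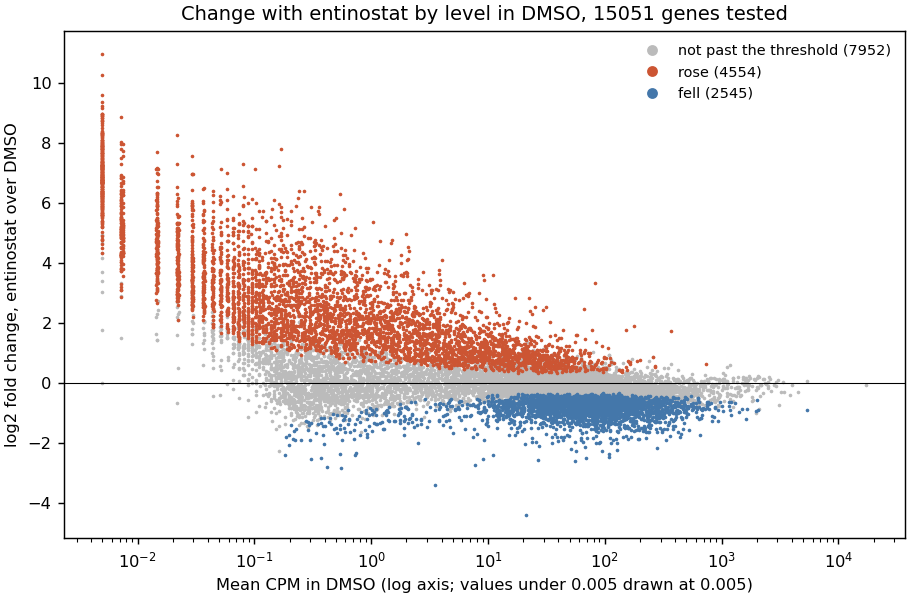
Log2 fold change of entinostat over DMSO (y axis) against the mean CPM in DMSO on a log axis (x axis) for the 15051 genes tested, with the 4554 rises and 2545 falls coloured. Rises reach the largest sizes at the left, among genes near 0 in DMSO, and falls lie mostly above 10 CPM.

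A count without that filter gave the same asymmetry. Of 4379 protein-coding genes under 0.1 CPM in every DMSO library, 91 (2.08%) reached at least 1 CPM in every entinostat library. Of 2937 under 0.1 CPM in every entinostat library, 0 stood at 1 CPM or more in every DMSO library. Protein-coding genes at 1 CPM or more in every library numbered 9449 in DMSO and 10244 in entinostat.

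The largest rises, among called genes averaging 5 CPM or more over the 6 libraries and without overlap of the groups, started from under 1 CPM. Ehf, an epithelial ETS factor (mm10 chromosome 2, 103263433 to 103303278), stood at 0.18, 0.152 and 0.175 CPM in DMSO and at 25.2, 44.8 and 42.9 CPM in entinostat (7.78 ± 0.45, adjusted p = 2.01e-07). C3ar1, the receptor for complement fragment C3a, went from 0.0225, 0.0652 and 0.153 to 6.55, 17.2 and 15.6 CPM (7.30 ± 0.63; 8.12 without the third DMSO library). Erbb3, a receptor of neuregulins, went from 0.225, 0.152 and 0.109 to 11.3, 30.8 and 31.6 CPM (7.23 ± 0.56). In these 3 genes the first entinostat library was the lowest of its group and still far above every DMSO library. Kcnj10, an inward rectifier potassium channel of glia, rose by 7.13 ± 0.57, and Cd59a, an inhibitor of complement lysis, by 6.41 ± 0.40. Mgarp, a mitochondrial protein, rose by 6.30 ± 0.30, Slfn14, a ribosome-associated nuclease, by 6.15 ± 0.38, Cyp4b1, a cytochrome P450, by 6.09 ± 0.37, and the synaptic vesicle gene Syngr3 by 5.98 ± 0.34. Mcam, an adhesion molecule, rose by 5.88 ± 0.54, S1pr1, the receptor that guides cells along sphingosine 1-phosphate, by 5.86 ± 0.35, and Cd200r3, a receptor of basophils and mast cells, by 5.85 ± 0.56. Their folds rest on few counts in DMSO.

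Genes at 5 CPM or more in DMSO, again taken among called genes without overlap of the groups, rose by smaller factors. Nrip3 stood at 8.27, 8.67 and 10.3 CPM in DMSO and at 108, 113 and 106 CPM in entinostat (3.59 ± 0.21, adjusted p = 2.41e-07). F11r, the junctional adhesion molecule JAM-A, went from 8.2, 8.47 and 10.9 to 110.2, 93.1 and 96.1 CPM (3.44 ± 0.17). Neurl3, a ubiquitin ligase, went from 7.98, 11.7 and 13.4 to 96, 149 and 152 CPM (3.58 ± 0.27), and in none of these 3 genes did the groups come near one another. Itgb7, an integrin chain of lymphocytes and mast cells, went from 3.98, 7.15 and 7.42 to 32.4, 79.9 and 74.3 CPM (3.33 ± 0.52), lowest in the first entinostat library. Ikzf2, the zinc finger factor Helios, rose by 2.98 ± 0.21, Rgs1, a regulator of G protein signalling, by 2.99 ± 0.33, and Elovl7, an elongase of fatty acids, by 2.92 ± 0.17. Of genes at 100 CPM or more, Il1rl1, the receptor of interleukin-33, rose from 381, 359 and 367 to 1098, 1298 and 1259 CPM (1.72 ± 0.17, adjusted p = 7.87e-06), the elongation factor subunit Aff4 rose by 1.17 ± 0.27 and the general transcription factor Gtf2b by 0.85 ± 0.15.

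The largest falls were taken among called genes without overlap of the groups. They also averaged 5 CPM or more over the 6 libraries, a limit that leaves out falls from low levels. C2cd4a, a nuclear protein with a C2 domain (mm10 chromosome 9, 67830489 to 67832330), stood at 19, 23.8 and 20.6 CPM in DMSO and at 0.861, 0.932 and 1.24 CPM in entinostat (-4.38 ± 0.30, adjusted p = 5.75e-07). Trmt61a, the catalytic subunit of a tRNA adenine methyltransferase, went from 61.4, 52 and 54.8 to 12, 7.84 and 8.04 CPM (-2.59 ± 0.25). Grwd1, a histone-binding protein of ribosome assembly, went from 114, 113 and 102 to 18, 23.5 and 23.2 CPM (-2.34 ± 0.23). The groups lie well apart in each of these genes, though a lack of overlap was a condition of their choice. Bend3, a repressor that binds heterochromatin and bivalent promoters, fell by 2.54 ± 0.32, Smim5 by 2.48 ± 0.24, the anion exchanger Slc26a1 by 2.45 ± 0.29, and Txnrd3, a thioredoxin reductase, by 2.41 ± 0.30. The lectin gene Clec2d fell by 2.52 ± 0.52, and by 3.27 without the first entinostat library. The nucleolar genes Ccdc86 and Pwp2 fell by 2.25 ± 0.22 and 2.21 ± 0.27, the reduced folate carrier Slc19a1 by 2.25 ± 0.19 and the homeobox gene Six2 by 2.20 ± 0.27.

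**Figure D3:**
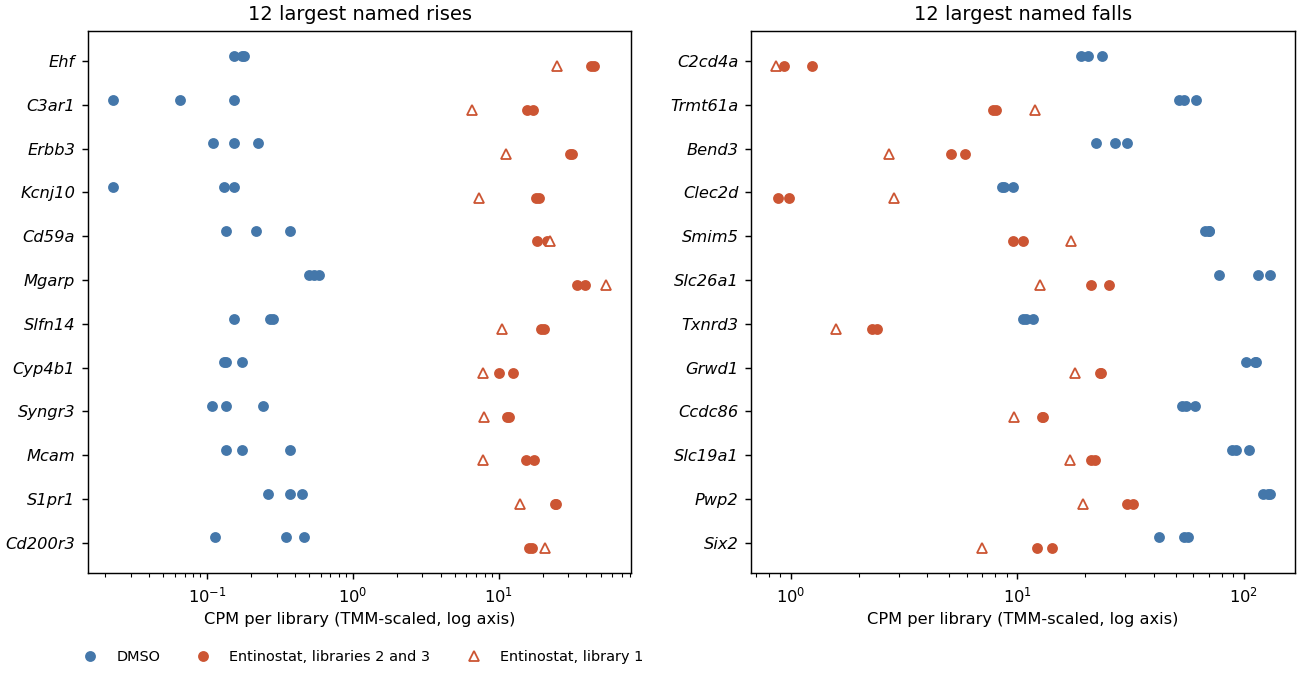
CPM in each library on a log axis (x axis) for the 12 largest named rises (left) and the 12 largest named falls (right), with the first entinostat library as an open triangle. In all 24 genes the entinostat libraries lie wholly on one side of the DMSO libraries, which was a condition of their choice.

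Promoter sequence was set beside these changes as a description. RefSeq promoters on GRCm38.p6, from 250 bases before to 50 after the start, were matched by symbol for 10203 of the genes tested, of which 9370 protein-coding genes were used. C3ar1 and Kcnj10 are shown as the first of the largest rises, by size, with a promoter in the table. Both rose from near silence, and their promoters, with CG in capitals, differ in CpG content. The C3ar1 promoter (chr6:122856108-122856407, minus strand) holds 5 CG and the Kcnj10 promoter (chr1:172340960-172341259, plus strand) 21.
C3ar1: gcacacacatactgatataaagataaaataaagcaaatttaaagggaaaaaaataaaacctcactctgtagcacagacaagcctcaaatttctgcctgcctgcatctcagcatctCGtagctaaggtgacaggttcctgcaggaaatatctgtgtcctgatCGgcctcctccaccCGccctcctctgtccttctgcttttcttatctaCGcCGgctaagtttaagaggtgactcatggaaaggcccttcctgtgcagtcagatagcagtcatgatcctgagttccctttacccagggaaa
Kcnj10: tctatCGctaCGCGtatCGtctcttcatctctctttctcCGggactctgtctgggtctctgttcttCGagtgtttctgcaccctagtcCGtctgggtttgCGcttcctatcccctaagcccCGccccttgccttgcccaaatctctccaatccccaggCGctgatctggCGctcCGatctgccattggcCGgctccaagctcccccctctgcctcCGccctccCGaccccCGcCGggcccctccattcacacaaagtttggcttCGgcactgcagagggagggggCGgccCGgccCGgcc
The median number of CG per promoter was 10 in the 791 genes under 1 CPM that rose at least 8-fold, 9 in the 307 genes under 1 CPM that were not called, and 21 in all 9370. The SPI1 core word GAGGAA, searched on both strands, lay in 30.1% of promoters of those 791 genes, in 26.4% of the 307 and in 25.9% of all. The word AGATAA of GATA factors lay in 11.5%, 13.7% and 6.93%, and the TATA word TATAAA in 14.3%, 11.4% and 7.12%.

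The promoters shown for the falls were chosen for holding the E-box word CACGTG, the site of MYC and related factors, which is in capitals. It reads the same on both strands. It was found in 5 of the 11 largest falls with a promoter in the table and in 0 of the 8 largest rises with one, both sets chosen for the size of their change. These rises started from under 1 CPM, where 7.17% of the 307 promoters of genes not called held the word. With so few promoters the 0 of 8 says little. Among the largest falls from at least 100 CPM 2 of 8 held it, and among the largest rises from at least 5 CPM 0 of 7. Clec2d, Slc26a1 and Txnrd3 fell more than Grwd1 but do not hold the word, so they are not shown. Promoters are those of C2cd4a (chr9:67832281-67832580, minus strand), Trmt61a (chr12:111677855-111678154, plus strand), Bend3 (chr10:43478890-43479189, plus strand, the first of 2 listed) and Grwd1 (chr7:45830740-45831039, minus strand).
C2cd4a: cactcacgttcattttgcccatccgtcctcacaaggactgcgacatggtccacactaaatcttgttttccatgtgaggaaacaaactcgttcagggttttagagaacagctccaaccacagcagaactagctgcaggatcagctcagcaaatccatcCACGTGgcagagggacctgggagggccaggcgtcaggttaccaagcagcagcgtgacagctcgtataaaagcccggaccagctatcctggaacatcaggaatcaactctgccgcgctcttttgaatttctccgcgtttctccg
Trmt61a: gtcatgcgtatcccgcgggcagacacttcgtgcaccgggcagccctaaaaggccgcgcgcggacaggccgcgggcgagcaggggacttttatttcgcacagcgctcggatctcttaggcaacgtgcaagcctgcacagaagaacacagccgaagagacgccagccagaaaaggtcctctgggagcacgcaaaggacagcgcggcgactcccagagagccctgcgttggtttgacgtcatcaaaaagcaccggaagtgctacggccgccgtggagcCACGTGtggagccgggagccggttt
Bend3: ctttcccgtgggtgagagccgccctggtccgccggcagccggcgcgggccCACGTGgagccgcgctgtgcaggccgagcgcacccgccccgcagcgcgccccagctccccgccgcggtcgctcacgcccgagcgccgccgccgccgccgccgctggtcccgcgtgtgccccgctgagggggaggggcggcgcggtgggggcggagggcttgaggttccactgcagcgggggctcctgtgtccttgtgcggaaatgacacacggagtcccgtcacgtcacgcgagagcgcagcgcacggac
Grwd1: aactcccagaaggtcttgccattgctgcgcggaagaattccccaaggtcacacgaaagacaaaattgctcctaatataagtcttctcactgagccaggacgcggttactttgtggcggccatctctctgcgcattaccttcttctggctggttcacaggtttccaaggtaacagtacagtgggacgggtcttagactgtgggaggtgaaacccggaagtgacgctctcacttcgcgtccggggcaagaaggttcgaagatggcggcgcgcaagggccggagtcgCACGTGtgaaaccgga
Among genes of at least 10 CPM in DMSO, CACGTG lay in 18.3% of 492 promoters of genes that fell at least 2-fold, in 11.2% of 4036 of genes that were not called and in 7.39% of 176 of genes that rose at least 2-fold. It lay in 10.3% of all 9370 promoters, in 13 of 55 promoters (23.6%) of ribosome biogenesis genes and in 7 of 26 (26.9%) of tRNA modification and RNA polymerase III genes. In other lists with falls the share was 22.2% of 18 promoters for cholesterol genes, 15.4% of 39 for DNA replication and 13.8% of 29 for folate and nucleotide genes, and in cytosolic ribosomal protein genes it was 8.77% of 57. A match is a run of letters and not a bound site.

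Ribosome biogenesis was the gene list with the most falls. Of 61 nucleolar and ribosome assembly genes, all tested and expressed, 54 fell and 0 rose, against 23.4% and 16.9% of all expressed genes, with a median log2 fold change of -1.19. The medians by library of the same number were -1.48, -1.17 and -1.07. Ubtf, the factor that opens ribosomal DNA for RNA polymerase I (mm10 chromosome 11, 102304560 to 102319742), stood at 284, 292 and 264 CPM in DMSO and at 44, 71.5 and 74.7 CPM in entinostat (-2.14 ± 0.25, adjusted p = 2.68e-05). Polr1b, the second largest subunit of RNA polymerase I, went from 112, 117 and 111 to 22.4, 32.2 and 31.7 CPM (-1.98 ± 0.19). Nop2, a ribosomal RNA methyltransferase, went from 324, 348 and 325 to 59.8, 101 and 107 CPM (-1.90 ± 0.26). Entinostat libraries lay below every DMSO library in all 3, and the first was the lowest of each. The assembly factor Ppan fell by 1.96 ± 0.17, the helicase Dhx33 by 1.68 ± 0.16 and Rrp9, of the U3 particle, by 1.87 ± 0.21. The falls numbered 50 with library size alone and 57 with a trend over transcript length and GC content removed, a fit that called 35.7% of all genes as rises and 18.4% as falls. The 3 members furthest from a fall were Polr1c (-0.57 ± 0.31), Npm1 (-0.29 ± 0.27) and Taf1d (-0.13 ± 0.34), picked after their values were seen, of which Polr1c passed without the first entinostat library (-0.89, 0.0281).

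Genes for the proteins of the ribosome itself were rarely called. Of 76 cytosolic ribosomal protein genes tested, 0 rose and 1 fell, with a median of 0.03, and their medians by library, 0.51, -0.26 and -0.44, differ in sign. The 1 that fell is Rps10 (-0.96 ± 0.33), whose call ended without the first DMSO library (0.114) or the second (0.1) or the third entinostat library (0.0992). Without the first entinostat library 3 of the 76 fell and the median was -0.48, so the median near 0 rests on that library. These genes are short, in the range where the first entinostat library is shifted upwards. Whether length accounts for the difference between libraries was not tested. With the trend over transcript length and GC content removed, 0 rose and 2 fell, with a median of 0.04. Of 76 mitochondrial ribosomal protein genes 22 fell and 0 rose (median -0.39), such as Mrps18b (-1.34 ± 0.15) and Mrps30 (-0.95 ± 0.17). Without the first entinostat library 42 of them fell, and with library size alone 8.

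Other genes of protein synthesis and growth fell with the nucleolar list. Of 35 genes of tRNA modification and RNA polymerase III, 22 fell and 0 rose (median -0.74). Beside Trmt61a they include Polr3d (24.2, 23.7 and 24.2 to 6.28, 6.67 and 7.59 CPM, -1.81 ± 0.20) and Polr3e (71.9, 68.8 and 67.9 to 19.7, 22.8 and 25.2 CPM, -1.62 ± 0.16), subunits of RNA polymerase III, whose libraries do not overlap. The tRNA methyltransferase Trmt2a fell by 1.31 ± 0.14. Of 20 aminoacyl-tRNA synthetases, which load amino acids on tRNA, 12 fell and 0 rose (median -0.68), among them Farsa (-0.97 ± 0.18) and Sars (-0.80 ± 0.19). Only 2 of the 20 fell with library size alone, and 8 without the first entinostat library.

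Genes of nucleotide and sterol synthesis fell in part. Of 35 genes of the folate cycle and of purine and pyrimidine synthesis 13 fell and 4 rose (median -0.52). Fpgs, which traps folates in the cell, went from 46.6, 46.2 and 41.3 to 9.31, 14 and 15.4 CPM (-1.79 ± 0.20), and Ctps, the CTP synthase, fell by 1.23 ± 0.19 and Adsl, of purine synthesis, by 1.22 ± 0.21. Of 24 genes of cholesterol synthesis and uptake 12 fell and 0 rose (median -0.60). Sqle, the squalene epoxidase, stood at 171, 192 and 193 CPM in DMSO and at 46, 66.6 and 74.7 CPM in entinostat (-1.57 ± 0.25, adjusted p = 0.000261), with no overlap. The sterol carrier Stard4 fell by 1.38 ± 0.15 and Insig1, which retains the sterol-sensing machinery in the endoplasmic reticulum, by 0.81 ± 0.13. Scaling by library size alone left 6 falls in the nucleotide list, where 7 genes then rose, and 7 in the sterol list.

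MYC, which drives nucleolar and nucleotide genes in many cells, fell in RNA as well. Myc (mm10 chromosome 15, 61985391 to 61990374) stood at 176, 255 and 208 CPM in DMSO and at 46.9, 84.9 and 81.6 CPM in entinostat (-1.58 ± 0.26, adjusted p = 0.000321). Every entinostat library was below every DMSO library. Of the 12 members of its network tested 3 rose and 3 fell, and the other 2 that fell are its partner Max (-1.18 ± 0.18) and the repressor Mnt (-1.58 ± 0.33). Mxd3 (1.43 ± 0.21), Mycl (4.07 ± 0.48, and 4.66 without the second DMSO library) and Mlxipl (3.19 ± 0.36) rose. These 5 were named after their values were seen.

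Cell cycle genes fell in part, and 4 of 8 inhibitors of cyclin-dependent kinases rose (7 with library size alone and 3 without the first entinostat library). Cdkn1a, the inhibitor p21 and a known marker of deacetylase inhibition, stood at 4.07, 6.86 and 6 CPM in DMSO and at 23.7, 46.5 and 44.5 CPM in entinostat (2.76 ± 0.38, adjusted p = 8.34e-05). Cdkn2b, or p15, went from 5.44, 7.15 and 8.31 to 14.1, 12.9 and 15.3 CPM (1.02 ± 0.18), and Cdkn1c, or p57, from 0.112, 0.109 and 0.131 to 0.609, 1.08 and 0.834 CPM (2.82 ± 0.51). The groups did not overlap in these 3. The fourth, Cdkn1b, or p27, rose from 52.1, 47.6 and 56.1 to 90.8, 66.4 and 74.4 CPM (0.57 ± 0.17), and its call ended without the first entinostat library (0.0532) and without the first (0.0561) or the second DMSO library (0.0739). Of 21 G1 cyclins, kinases and E2F genes 9 fell and 2 rose (median -0.38). Ccne1, cyclin E1, stood at 98.2, 96.9 and 92.3 CPM in DMSO and at 39.1, 40.4 and 39.3 CPM in entinostat (-1.27 ± 0.13), and the phosphatase Cdc25a fell by 1.55 ± 0.21. Of 47 DNA replication and S phase genes 19 fell and 0 rose (median -0.55), including the origin factors Orc1 (-1.18 ± 0.18), Cdt1 (-0.99 ± 0.21) and Mcm10 (-0.94 ± 0.18). Of 40 genes of G2 and mitosis 9 fell and 2 rose (median -0.29), a share of falls near that over all expressed genes. Falls in these 3 lists numbered 4, 7 and 4 with library size alone.

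Histone genes were the list with the most rises. Replication-dependent histone messages normally end in a stem loop and carry no poly(A) tail, and these libraries were made from poly(A) RNA. Of 62 such genes 48 were tested, 39 rose and 0 fell, and all 12 expressed ones rose. H1f2, a linker histone, stood at 66.6, 84.5 and 95.3 CPM in DMSO and at 744, 845 and 922 CPM in entinostat (3.35 ± 0.32, adjusted p = 6.11e-06). H1f3 went from 1.73, 2.11 and 2.16 to 73.6, 59 and 55.9 CPM (4.97 ± 0.32) and H2ac6 from 1.71, 1.54 and 1.88 to 13.4, 8.81 and 9.34 CPM (2.62 ± 0.26). All entinostat libraries lay above all DMSO libraries in these genes. Near-identical histone genes can share reads, which leaves single members uncertain, and the medians by library, 2.60, 1.73 and 1.89, were highest in the first. The replacement histones, which are made outside S phase and are polyadenylated, rose in 3 of 9 genes, all expressed, against 16.9% of all expressed genes. H1f0, the linker histone of resting and differentiating cells, went from 61.8, 65.5 and 71.3 to 345, 393 and 369.7 CPM (2.48 ± 0.19, adjusted p = 1.28e-06), with no overlap, and H2ax, the variant phosphorylated at DNA breaks, rose by 1.12 ± 0.18.

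Of 24 genes known from other cells to rise with deacetylase inhibitors, 14 rose here and 1 fell (median 0.95; 12 and 1 of the 21 expressed). Of all genes tested 30.3% rose and 16.9% fell, and of the expressed ones 16.9% and 23.4%. Tubb3, a neuronal tubulin, stood at 1.03, 1.93 and 1.51 CPM in DMSO and at 20.1, 47.4 and 47.3 CPM in entinostat (4.68 ± 0.42, adjusted p = 4e-06). Btg2, an antiproliferative gene, went from 16.8, 22 and 29.6 to 78.4, 143 and 136 CPM (2.39 ± 0.38). Neither gene had overlapping groups. The 1 that fell is the metallothionein Mt1 (-0.58 ± 0.16), whose call ended with the length and GC trend removed (0.115) and with library size alone (0.152). Of 23 p53 target genes 9 rose and 3 fell (median 0.39; 8 and 3 of the 22 expressed), not far from the shares of all genes tested. The stress-induced Trp53inp1 rose by 1.61 ± 0.25. The death receptor Fas rose from 0.0225, 0.0217 and 0.0655 to 1.14, 0.841 and 0.945 CPM (4.63 ± 0.52, and 5.29 without the third DMSO library).

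The machinery that writes and erases acetylation moved unevenly. Counts are read against the 16.9% of all expressed genes that rose and the 23.4% that fell. Of 39 genes of class I deacetylases and their corepressor complexes 12 fell and 1 rose (median -0.33), and all 12 falls were among the 38 expressed. Ing2, a reader subunit of the SIN3 complex, went from 17.9, 17.3 and 17.4 to 6.18, 5.9 and 5.08 CPM (-1.62 ± 0.15), and Mbd3, of the NuRD complex, from 138, 138 and 131 to 43.3, 59.4 and 57.7 CPM (-1.35 ± 0.20). Both lay below DMSO in every entinostat library. Scaled by library size alone, 6 fell and 3 rose. Among 13 class II and IV deacetylases and sirtuins 5 rose and 3 fell (3 and 3 of the 11 expressed). Hdac5 stood at 10.9, 14.4 and 15.1 CPM in DMSO and at 33.8, 59.9 and 63.1 CPM in entinostat (1.96 ± 0.32, adjusted p = 0.000339), the tubulin deacetylase Hdac6 rose by 1.19 ± 0.31 and Hdac11 by 2.81 ± 0.51. Of 24 acetyltransferases and acetyl-lysine readers 7 fell (3 with library size alone and 13 with the length and GC trend removed) and 2 rose, the falls including Kat2a (-1.01 ± 0.23), Kat5 (-0.80 ± 0.14) and Brd7 (-1.06 ± 0.21). Of 11 PRC2 subunits 1 rose and 1 fell, with a median of -0.19 that becomes 0.07 with library size alone. Of 20 PRC1 subunits, all expressed, 2 rose and 5 fell, a share of falls near that over all expressed genes. Bmi1 of that complex went from 249.5, 240.2 and 252 to 141, 117 and 120.0 CPM (-0.97 ± 0.19). Of 12 DNA methylation and TET genes 4 rose, with Tet1 (0.0225, 0.0869 and 0.0436 to 0.336, 0.841 and 1 CPM, 3.76 ± 0.56) and the repair enzyme Mbd4 (0.74 ± 0.14) among them, and 3 fell. Among the 11 expressed 3 rose and 3 fell.

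Genes of the BCL2 family moved on both sides of the balance between survival and death. Bmf, a BH3-only killer, went from 0, 0.152 and 0.0218 to 4.16, 9.65 and 9.85 CPM (7.01 ± 0.72 on the log2 scale, and 9.16 without the second DMSO library, which holds most of its few DMSO counts). Bcl2l11, or BIM, stood at 9.64, 9.04 and 8.27 CPM in DMSO and at 24.8, 40 and 37.4 CPM in entinostat (1.92 ± 0.21, adjusted p = 1.88e-05). Bik, another BH3-only gene, rose from 6.94, 5.54 and 7.75 to 16, 10.4 and 9.34 CPM (0.82 ± 0.28), a call that ended without the first entinostat library (0.102) and without the first (0.0663) or the second DMSO library (0.103). The effectors Bak1 (-0.92 ± 0.24) and Bax (-0.51 ± 0.19) and the BH3-only gene Bid (-0.73 ± 0.14) fell. With library size alone Bid was the only 1 of the 3 that passed (0.0653 for Bak1 and 0.235 for Bax), and the Bax call also ended without any 1 of 4 libraries, the first and the third of DMSO and the second and the third of entinostat (0.0664 to 0.15). On the protective side Bcl2l1, or BCL-XL, went from 18.6, 23 and 24.9 to 28.8, 43.4 and 45.3 CPM (0.82 ± 0.21), the only 1 of the 3 expressed anti-apoptotic genes that rose. Of the 7 expressed pro-apoptotic genes 2 rose and 3 fell.

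Many erythroid transcription factors fell while several late red cell genes rose. Of 25 factors tested, all expressed, 13 fell and 2 rose (median -0.70; 10 fell and 2 rose with library size alone, and 11 fell and 4 rose without the first entinostat library). Gata1, the master factor of red cells (mm10 chromosome X, 7959260 to 7978071), stood at 282, 309 and 275 CPM in DMSO and at 127, 170.5 and 162 CPM in entinostat (-0.92 ± 0.18, adjusted p = 0.00124). Klf1, which switches on globin and membrane genes (chromosome 8, 84901928 to 84905291), went from 109, 114 and 109 to 33.3, 43.3 and 55.6 CPM (-1.33 ± 0.23). Myb, the factor of proliferating progenitors, went from 276, 278 and 254 to 84.9, 121 and 124 CPM (-1.29 ± 0.20). No entinostat library reached the DMSO range in these 3. Lmo2 and Lyl1, of the SCL complex, fell by 1.57 ± 0.16 and 1.60 ± 0.21, and Bcl11a, a repressor of fetal globin, by 1.61 ± 0.23.

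Of 22 globin and heme genes 8 rose and 4 fell, against 30.3% and 16.9% of all genes tested. Among the 19 expressed 6 rose and 4 fell, against 16.9% and 23.4% of all expressed genes. The adult beta globin genes share most of their sequence, so Hbb-bs (116, 148 and 269.7 CPM in DMSO, 779, 516 and 693 CPM in entinostat, 1.90 ± 0.42) and Hbb-bt (1.76 ± 0.36) are not cleanly separate. Alas2, the first enzyme of red cell heme synthesis, went from 4.76, 5.95 and 7.79 to 19, 24 and 26.3 CPM (1.91 ± 0.33), and Fech, the last, from 156, 162 and 158 to 243, 284 and 272 CPM (0.75 ± 0.17). In these genes every entinostat library was above every DMSO library. Hba-a1, an alpha globin, stood at 11.3, 21.9 and 23.9 and 28.1, 27.5 and 41.2 CPM, without overlap, and did not pass (0.76 ± 0.45, adjusted p = 0.183). The embryonic beta-like gene Hbb-y rose from 0.315, 0.239 and 0.371 to 1.79, 2.14 and 2.67 CPM (2.82 ± 0.41). Among the 4 that fell are the heme enzymes Cpox (-1.10 ± 0.24) and Alad (-0.78 ± 0.17) and the glycine carrier Slc25a38 (-1.04 ± 0.16), named after their values were seen.

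Of 30 red cell membrane genes 10 rose and 4 fell, a share of rises near the 30.3% of all genes tested. Among the 27 expressed 7 rose and 4 fell, against 16.9% and 23.4% of all expressed genes. Rhag, of the Rh complex, went from 235, 272 and 269 to 424, 499.9 and 494 CPM (0.87 ± 0.21) and Kel, the Kell antigen, from 20.5, 21.6 and 19.2 to 47.7, 42.9 and 36.7 CPM (1.05 ± 0.16). The groups were apart in both. Epor, the EPO receptor (chromosome 9, 21958897 to 21963506), went the other way, from 105, 103 and 96.7 to 33.9, 35 and 35.5 CPM (-1.55 ± 0.13, adjusted p = 2.89e-06). Of 19 genes of the EPO and STAT5 response 6 fell and 6 rose (6 and 3 of the 16 expressed). Among the falls are Pim3 (-1.43 ± 0.14), Pim1 (-1.31 ± 0.33) and Osm (-1.36 ± 0.23). Among the rises are the feedback inhibitors Socs1 (0.0899, 0.0217 and 0.196 to 1.07, 0.731 and 1.19 CPM, 3.24 ± 0.52, and 4.10 without the third DMSO library), Socs2 (0.66 ± 0.17) and Socs3 (1.84 ± 0.45).

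**Figure D4:**
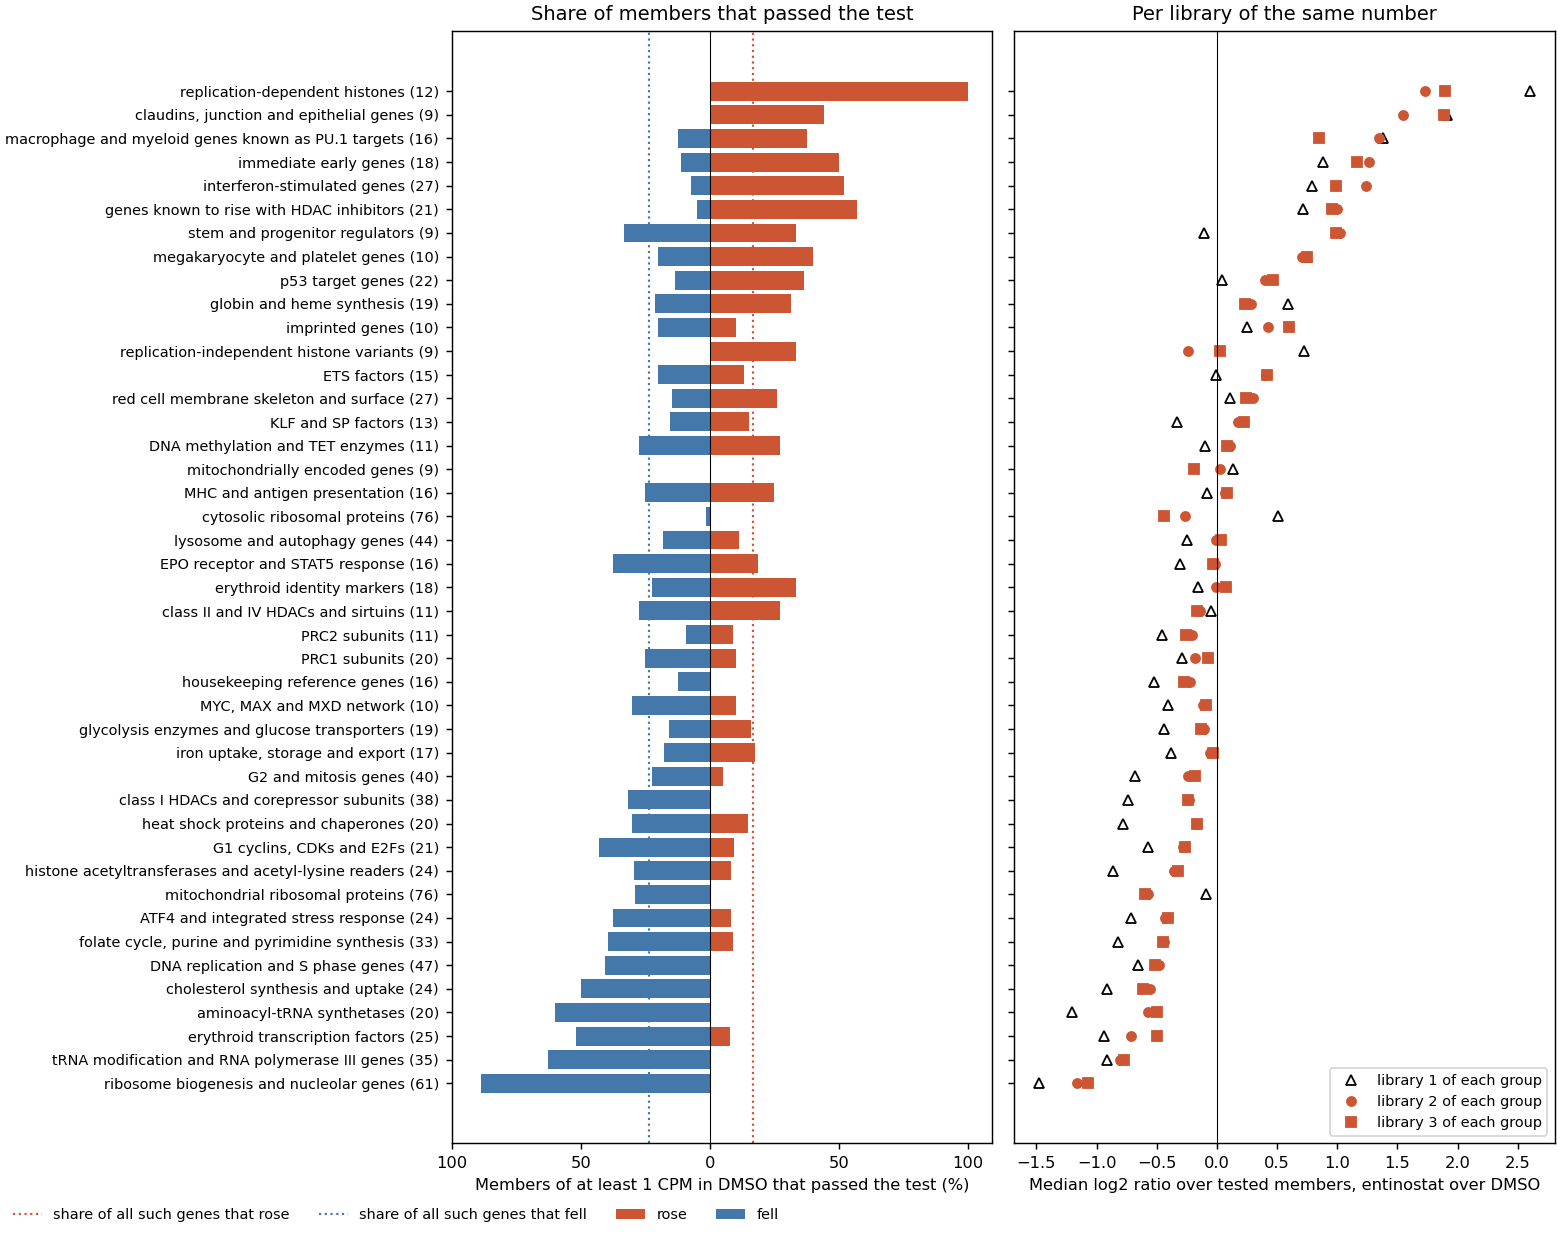
For the lists with at least 9 expressed members (number in brackets), the share of expressed members that rose or fell (left, percent, with the shares of all expressed genes dotted) and the median log2 ratio of tested members in each pair of same-numbered libraries (right). Histone genes lie at the top with 12 of 12 rising and ribosome biogenesis genes at the bottom with 54 of 61 falling.

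The erythroid label was checked against markers. Of 18 erythroid markers tested all were expressed, and their CPM summed to 8431 to 8685 in DMSO and 8455 to 9720 in entinostat. Hba-a2 was at 0 in every library. Defining markers of macrophages, neutrophils, T cells and stroma were at or near 0 in DMSO. The 11 macrophage markers summed to 3.36 to 3.82 CPM in DMSO and 7.44 to 13.4 CPM in entinostat, and 8 of them were under 0.1 CPM in DMSO and 6 in entinostat, Adgre1, C1qb and Marco included. The 9 neutrophil granule genes summed to 0.174 to 0.405 and 2.91 to 4.05 CPM, with Elane, Camp and Ltf at 0 in DMSO. The 11 T and NK cell markers summed to 1.85 to 3.12 and 8.28 to 12.5 CPM, with Cd3d, Cd3e and Cd4 at 0 in DMSO, and the 10 B cell markers to 20.3 to 29.4 and 23 to 42.1 CPM, most of it Blnk, with Pax5 at 0 in DMSO. The 13 stromal and endothelial markers summed to 4.2 to 7.18 and 24.5 to 46.5 CPM, with Col1a2 at 0 in both groups. Mast cell genes summed to 614 to 680 and 1424 to 1512 CPM and megakaryocyte genes to 566 to 729 and 606 to 806 CPM. In bulk RNA a change in the number of cells of a type and in RNA per cell cannot be told apart, and the part of other cells in these sums was not tested.

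Of 26 myeloid genes known as SPI1 targets and tested, 16 rose and 2 fell (median 1.45), and among the 16 expressed ones 6 rose and 2 fell (median 0.43). Fcgr2b, an inhibitory Fc receptor, stood at 0.225, 0.109 and 0.196 CPM in DMSO and at 7.48, 7.91 and 7.71 CPM in entinostat (5.43 ± 0.31, adjusted p = 6.79e-07). Lyz2, lysozyme, went from 0.562, 0.434 and 0.436 to 6.6, 4.17 and 5.28 CPM (3.48 ± 0.47) and Fcgr1, the high-affinity receptor of IgG, from 0.449, 1.15 and 1.53 to 5.29, 5.39 and 6.43 CPM (2.45 ± 0.37). The groups lie apart in these, at low levels. The 2 that fell are the kinase Btk (-1.18 ± 0.21) and the adaptor Lcp2 (-0.61 ± 0.23, adjusted p = 0.0475). The Lcp2 call ended without any 1 of several libraries, among them the first entinostat library (0.114) and the third DMSO library (0.152), and with library size alone (0.312).

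Of 12 mast cell and basophil genes tested 8 rose and 1 fell (median 1.93; 5 and 1 of the 8 expressed). Hdc, the histamine-forming enzyme, stood at 3.71, 4.24 and 3.8 CPM in DMSO and at 11.9, 21.6 and 18.1 CPM in entinostat (2.14 ± 0.23, adjusted p = 1.52e-05). Fcer1a, the IgE receptor alpha chain, stood at 5.68, 2.48 and 3.36 CPM in DMSO and at 94.8, 24.6 and 24.1 CPM in entinostat. All entinostat values were above DMSO, but the first library lay far above the other 2, and the log2 fold change was 3.64 ± 0.82 with it and 2.66 without it. Gata2, which fell (-1.48 ± 0.24), is also an early erythroid factor. Of 17 megakaryocyte and platelet genes 8 rose and 2 fell (4 and 2 of the 10 expressed), with the chemokine Pf4 going from 18.4, 21 and 46.6 to 97.4, 57.6 and 78.4 CPM (1.44 ± 0.36) and the glycoprotein Gp9 from 1.08, 1.41 and 1.68 to 5.08, 4.97 and 4.35 CPM (1.79 ± 0.23). Of 11 stem and progenitor regulators 5 rose, such as Hhex (0.90 ± 0.16), Meis1 (1.09 ± 0.26) and Hlf (4.17 ± 0.45), and 3 fell (3 and 3 of the 9 expressed). Kit, the stem cell factor receptor, stood at 6.94, 4.87 and 2.86 and 6.43, 11.2 and 8.37 CPM, with overlap (0.83 ± 0.32, adjusted p = 0.0503). It passed without the first entinostat library (1.0, 0.0221), without the first DMSO library (1.15, 0.0202), with DESeq2 (0.82, 0.0315) and with library size alone (1.09, 0.0169). Other settings did not pass, such as a fit of the 6 compared libraries alone (adjusted p = 0.0876). Leaving out 1 library at a time gave adjusted p values as high as 0.189.

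Interferon-stimulated and immediate early genes were called up more often than down, also among expressed members, while genes of antigen presentation were not. Of 33 interferon-stimulated genes 20 rose and 2 fell (median 1.06; 14 and 2 of the 27 expressed). Ifit2 stood at 5.5, 6.28 and 8.49 CPM in DMSO and at 36.6, 55.9 and 58.5 CPM in entinostat (2.90 ± 0.29, adjusted p = 8.71e-06). Usp18, which removes ISG15 from proteins, went from 1.75, 1.85 and 3.08 to 9.85, 11.3 and 11.6 CPM (2.29 ± 0.25) and the antiviral enzyme Rsad2 from 0.337, 0.369 and 0.436 to 2.63, 6.56 and 7.06 CPM (3.82 ± 0.51). Groups did not overlap in any of the 3. Of 51 chemokine and interleukin ligands 25 were tested, and among the 5 expressed Il4 (1.73 ± 0.44), Tnf (1.52 ± 0.28) and Cxcl3 (1.72 ± 0.37) rose and Osm (-1.36 ± 0.23) fell, all 4 named after their values were seen. Rises from under 1 CPM in DMSO included Csf2, the growth factor GM-CSF (0.0674, 0.0869 and 0.0218 to 3.36, 1.9 and 1.65 CPM), and Cxcl10 (0.135, 0.304 and 0.305 to 2.23, 3.82 and 4.08 CPM). Of 25 immediate early genes 16 rose and 2 fell (median 1.11; 9 and 2 of the 18 expressed). Ier3 went from 4.97, 4.87 and 5.74 to 20.3, 31 and 27.3 CPM (2.34 ± 0.27), Jun from 0.764, 1.26 and 1.44 to 3.93, 5.99 and 8.17 CPM (2.38 ± 0.31) and Atf3 from 2.16, 2.41 and 3.08 to 10.5, 8.95 and 9.6 CPM (1.92 ± 0.19). Of 20 genes of antigen presentation 6 rose and 4 fell, and among the 16 expressed 4 rose and 4 fell (median -0.14; 1 of the 20 fell with library size alone), with Nlrc5, the activator of MHC class I genes, at 2.34 ± 0.24.

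Stress genes changed in both directions. Of all expressed genes 23.4% fell and 16.9% rose. Of 24 genes of ATF4 and the integrated stress response 9 fell and 2 rose (median -0.48), with Ddit3, or CHOP, going from 36.1, 29.6 and 28.9 to 14.5, 6.83 and 8.22 CPM (-1.68 ± 0.29). Of 21 heat shock genes 6 fell and 4 rose (6 and 3 of the 20 expressed), not far from the shares of all expressed genes. The master factor Hsf1 fell by 1.26 ± 0.17, and the chaperone Hsph1 went from 257, 284 and 299 to 55.7, 105 and 112 CPM (-1.62 ± 0.30). Entinostat and DMSO libraries did not overlap in these 3. With library size alone 4 genes of the first list fell and 3 rose, and in the heat shock list the balance turned, with 4 falls and 6 rises.

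Lists of genes known from other tissues held many members near 0 in DMSO, which could pass the filter only through the entinostat or doxycycline libraries, so only the counts of expressed members are given for them. Of 30 HOX genes 19 were tested, and among the 7 expressed 3 rose and 0 fell (median 0.36). Hoxc6 went from 0.202, 0.261 and 0.305 to 1.2, 1.96 and 2.46 CPM (2.86 ± 0.37). Of 31 developmental factors known as PRC2 targets 16 were tested, and among the 7 expressed 1 rose and 4 fell (median -0.50). Neurog2, a neuronal factor, went from 0.112, 0.0652 and 0.153 to 2.16, 2.6 and 2.63 CPM (4.45 ± 0.36) and Pax9 from 1.08, 0.978 and 0.851 to 4.37, 7.18 and 7.06 CPM (2.68 ± 0.25). Hoxc6, Neurog2 and Pax9 averaged under 1 CPM in DMSO, so they are not among the expressed members counted here. They were named by adjusted p among all tested members, and their rises do not stand for the expressed factors, of which 4 fell. Their levels stayed low in all libraries, and the members not tested were too low to pass the filter.

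Epithelial, neuronal, channel and germline lists had few expressed members. Of 32 claudin, junction and epithelial genes 22 were tested, and 4 of the 9 expressed rose and 0 fell. Cgn, cingulin, too low in DMSO to be among those 9, went from 0.225, 0.282 and 0.262 to 7.27, 10.1 and 9.5 CPM (5.11 ± 0.31). Of 34 neuronal genes repressed by REST 14 were tested, and among the 8 expressed 3 rose and 2 fell (median 0.22; 0 of the 14 fell without the first entinostat library), with Stx1a, syntaxin 1A, going from 3.55, 2.69 and 2.53 to 13.5, 11.7 and 12.2 CPM (2.09 ± 0.28). Of 46 potassium channel genes 19 were tested, and among the 5 expressed 3 rose and 2 fell, with Kcne3 going from 3.08, 3.5 and 4.25 to 46.8, 24.5 and 25 CPM (3.15 ± 0.34). Of 28 germline genes 9 were tested, and of the 2 expressed 1 rose and 0 fell. Dazl, an RNA-binding protein of germ cells and not 1 of those 2, went from 0.405, 0.304 and 0.305 to 14.4, 6.74 and 4.98 CPM (4.68 ± 0.45). Its first entinostat library was the highest of the 3.

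Some further lists had calls below or near the shares of all genes. Of all genes tested 30.3% rose and 16.9% fell, and of the expressed ones 16.9% and 23.4%. Of 13 mitochondrially encoded genes tested 0 passed in either direction (median 0.04), and of 16 housekeeping reference genes 2 fell and 0 rose (median -0.20, and 0.06 with library size alone). Of 44 lysosome and autophagy genes, all expressed, 5 rose and 8 fell, and 5 fell without the first entinostat library. Of 22 glycolysis genes and glucose transporters 6 rose and 3 fell (3 and 3 of the 19 expressed), the rises including the enolases Eno2 (0.0674, 0.0434 and 0.131 to 9.33, 6.93 and 7.13 CPM, 6.55 ± 0.52) and Eno3 (1.83 ± 0.19). Of 17 iron genes, all expressed, 3 rose and 3 fell. Of 19 ETS factors 4 rose and 3 fell (2 and 3 of the 15 expressed), and 7 of all tested rose without the first entinostat library.

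In 6 genes picked by the gap, the first entinostat library lay farthest from its group. Beside Fcer1a, Akap12, a scaffold of signalling proteins, stood at 0.405, 0.5 and 0.545 CPM in DMSO and at 7.61, 29.7 and 26.2 CPM in entinostat (5.44 ± 0.58, and 5.84 without the first library). Slfn5 went from 0.652, 1.04 and 1.51 to 3.63, 12.3 and 14.3 CPM (3.24 ± 0.55, and 3.63 without it). Fasn, the fatty acid synthase, went from 243, 411 and 372 to 44.5, 146 and 163 CPM (-1.54 ± 0.48, adjusted p = 0.018, and -1.15 with 0.0316 without that library, 0.0552 without the second DMSO library and 0.0562 with library size alone). Zswim5 stood at 2.34, 3.52 and 2.9 CPM in DMSO and at 2.75, 10.4 and 9.37 CPM in entinostat, with the first library inside the DMSO range (1.36 ± 0.48, adjusted p = 0.0315, and 1.75 with 0.00181 without it). Its call ended without any 1 of the DMSO libraries (adjusted p of 0.107, 0.0518 and 0.0796) or of the other 2 entinostat libraries (0.114 and 0.0919). Celf2 showed the same overlap (1.38 ± 0.52, adjusted p = 0.0448, and 1.78 with 0.00304 without the first entinostat library). Its call ended without the first (0.16) or second DMSO library (0.106), without the second (0.102) or the third entinostat library (0.19), and without each Dox_Entinostat library (0.0554 to 0.0621). Akap12, Slfn5, Zswim5, Celf2 and Fasn have transcripts of 6195, 5979, 5582, 8856 and 10050 bases, in the longest of the 4 length groups, and Fcer1a one of 998 bases, in the shortest.

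The entinostat effect in these cells was tested against that after 48 h of doxycycline as the difference between the 2 effects. Of 15051 genes 41 (0.272%) passed, 25 with a higher and 16 with a lower signed log2 fold change with doxycycline than without. The sign is that of the difference, so a deeper fall with doxycycline counts as lower. The count of 41 rests on the libraries that stand apart. Without the first NoDox_Entinostat library 928 were higher and 2133 lower, and without the first Dox_DMSO library 1018 and 1619. Spi1 did not pass (-0.30 ± 0.46, adjusted p = 0.708).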

How the data were processed

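The deposited table of the authors gives raw read counts per gene for 12 poly(A) RNA libraries of 4 groups, and a second table, of doxycycline alone, was not used here. The tools named in the submitters' processing notes include STAR, DESeq2 and bcl2fastq 2.17.1.14, with mm10 as the genome. The counting program and annotation are not given in the sources used here. The counts carry no molecular identifiers. Per the labels' protocols the kit was TruSeq RNA v2, which does not mark strand, so reads of 2 genes that overlap on the 2 strands are not separated, and near-identical genes (histones, globins) are uncertain.

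Here all 12 libraries entered 1 fit in edgeR 4.0.16 (R 4.3.3): filterByExpr, TMM factors, group means, quasi-likelihood tests, Benjamini-Hochberg adjustment over the 15051 genes, two-sided, threshold 0.05. A value given as a ± b is a log2 fold change, entinostat over DMSO, with its standard error. CPM are scaled by TMM. Coordinates and transcript lengths come from GENCODE M21 (mm10), which held 26853 of the 26903 gene IDs. The fit was also run on simulated counts with known changes, as many rises as falls and no library set apart. Those settings differ from these data, so that run does not bear on the scaling or on the first entinostat library. Alternatives were library size alone, RLE factors, other filters, DESeq2 1.42.0, limma-voom (limma 3.58.1), a replicate block, the 6 libraries alone, leaving out each library, and, chosen after seeing the data, removing a length and GC trend and leaving out 2 libraries.

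Named genes are 17 fixed genes, the 12 largest rises and falls (mean of at least 5 CPM, called, no overlap), the 10 largest rises from at least 5 CPM and rises and falls from at least 100 CPM, up to 4 genes by adjusted p from each list with over 25% called in 1 direction, the 6 genes with the largest first-library gap and the 6 smallest adjusted p of the difference between the 2 entinostat effects. Members of a list named because they were the few that went another way were chosen after their values were seen. Genes, lists (59) and tests were chosen with earlier results of these data known. A few members of the lists are not reported here by name.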

Additional observations from a re-analysis of the deposited data

Results flagged for a closer look

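Genes whose response to entinostat differed between cells with and without doxycycline are those with the smallest adjusted p of the difference (0.00493 in each, edgeR's quasi-likelihood test, 12 libraries). Tespa1, a signalling protein of lymphocytes, rose by 2.55 without doxycycline and by 6.68 with it, a difference of 4.14 ± 0.47 on the log2 scale. Lgals1, galectin-1, rose by 1.79 without and 5.27 with it (3.49 ± 0.43). Smagp, a small membrane protein, changed by 0.58 without and 2.78 with it (2.20 ± 0.26), and Acap1, a regulator of endosome traffic, by 0.44 and 2.27 (1.83 ± 0.22). In the other direction, Plpp1, a lipid phosphatase, rose by 3.71 without and changed by 1.14 with doxycycline (-2.57 ± 0.32), and Fads3, a fatty acid desaturase, rose by 1.80 without and changed by -0.39 with it (-2.20 ± 0.27). Without the first NoDox_Entinostat library the differences were 4.34 for Tespa1, 3.64 for Lgals1, 2.28 for Smagp, 1.80 for Acap1, -2.43 for Plpp1 and -2.31 for Fads3.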

How the results depend on the processing

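Of 5706 values of the 260 named genes under the alternatives, 5582 kept their direction and side of the threshold, 97 no longer passed, 27 newly passed and 0 changed sign while called. Leaving out 1 library at a time gave 4055 to 5134 rises and 1917 to 3059 falls, 3650 to 4140 and 719 to 863 at least 2-fold. With library size alone 1233 genes fell, 326 of them at least 2-fold. In all, 2079 rises and 279 falls were called at least 2-fold in the reported fit and all 22 alternatives. Without the first NoDox_Entinostat and first Dox_DMSO libraries 4286 genes fell. The count of genes whose entinostat effect differs with doxycycline depended most on the settings. It was 6 to 1018 higher and 3 to 2133 lower, by the sign of the difference, when 1 library was left out. It was 3326 and 4646 without both first libraries and 67 and 139 with no filter. DESeq2 gave 122 and 113, and removing the length and GC trend gave 60 and 32. The cause was not tested.

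The replicate numbers of the labels do not pair the libraries by the rule used, since DMSO and entinostat libraries without doxycycline correlated in their departures from the group means at 0.681, 0.776 and 0.081, although all 12 libraries correlated best with their own number. Same-numbered NoDox_Entinostat and Dox_DMSO libraries correlated at 0.957, 0.925 and 0.906, and NoDox_DMSO and Dox_Entinostat libraries at 0.283, 0.193 and 0.352. With the replicate block 4923 genes rose and 3392 fell, and the effect differed in 73 (higher with doxycycline) and 104 (lower) genes. Among named genes Spi1 (0.66, adjusted p = 0.00849), Hba-a1 (0.82, 0.00775), Kit (0.88, 0.012) and Polr1c (-0.62, 0.0045) then passed and Csf1r (1.54, 0.0527) did not. Depth limits the genes near 0 in DMSO, whose folds rest on few counts, and 3 libraries per group from 1 line limit the rest.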

Other observations

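Noncoding genes were called up in large part, a share that the filter on low counts sets to an extent not tested. Of 579 long intergenic noncoding RNA genes tested 388 (67%) rose and 11 fell (median 1.90), and of 526 antisense genes 287 (54.6%) rose and 13 fell, against 3332 rises and 2392 falls among 11757 protein-coding genes. Shares were not compared at a matched level in DMSO. Without strand an antisense gene cannot be told apart from its partner. Processed pseudogenes, whose reads may belong to their parent genes, were called up in 84 and down in 74 of 1004 cases, with medians by library of 0.20, -0.29 and -0.42 that differ in sign as those of the ribosomal protein genes do.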
